A study of Mus musculus with 16 samples.

Results

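The opioid system of cultured hippocampal neurons was described through 7 genes, chosen by name as the classical precursor and receptor genes of the opioid family, out of 55385 genes in the count tables. Of the 7, 3 encode peptide precursors (Penk, Pdyn and Pnoc) and 4 encode receptors (Oprm1, Oprd1, Oprk1 and Oprl1). RNA was measured in 16 libraries from primary hippocampal cultures of newborn C57Bl/6N mice, 4 libraries in each of 4 groups. The cultures carried a recombinant adeno-associated virus that expressed Control-shRNA or an shRNA against the long isoform of the DNA methyltransferase Dnmt3a (Dnmt3a1-shRNA2 in the paper, while the labels give no construct number). RNA was taken in baseline or after 4 h with bicuculline, a blocker of GABA-A receptors that makes the network fire in bursts. In both vectors the shRNA was driven by the U6 promoter and GFP by the chicken β-actin promoter, neither of which is restricted to 1 cell type, although the serotype that the study used in the hippocampus is known to favour neurons. The sequencing used 1 construct against Dnmt3a1. Every group was infected, so no uninfected culture enters the comparisons.

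Opioid precursors are long proteins that are cut into short peptides inside secretory vesicles. Penk gives rise to the enkephalins, which act mainly on the delta receptor (Oprd1) and the mu receptor (Oprm1), Pdyn to the dynorphins, which prefer the kappa receptor (Oprk1), and Pnoc to nociceptin, the ligand of the nociceptin receptor (Oprl1). All 4 receptors couple to inhibitory G proteins, which lower cAMP, open inwardly rectifying potassium channels and close presynaptic calcium channels. In the hippocampus Penk and Pdyn are known from granule cells of the dentate gyrus, Penk and Pnoc also from GABAergic interneurons, and enkephalin and dynorphin genes are known to respond to neuronal activity.

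On GRCm38, Penk (ENSMUSG00000045573.9) lies on chromosome 4 from 4133531 to 4138819 and Oprd1 (ENSMUSG00000050511.1) on the same chromosome from 132110726 to 132144486, both on the minus strand. Pdyn (ENSMUSG00000027400.11) lies on the minus strand of chromosome 2 from 129686565 to 129699844, and Oprl1 (ENSMUSG00000027584) on its plus strand from 181715016 to 181720985. Pnoc (ENSMUSG00000045731.6) lies on the minus strand of chromosome 14 from 65400673 to 65425472. The mu receptor gene Oprm1 (ENSMUSG00000000766.18) occupies 6758506 to 7038198 of chromosome 10 and Oprk1 (ENSMUSG00000025905) 5588466 to 5606131 of chromosome 1, both plus strand. Annotated exons of Penk share 233 bases with the antisense RNA A830012C17Rik, and exons of Oprm1 share 96 bases with Ipcef1 on the opposite strand. Whether the quantification used strand is not given in the sources used here, so reads in these overlaps cannot be told apart.

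Dnmt3a1 methylates DNA at CG dinucleotides, and the 250 bases before the annotated start are shown for 3 of the genes so that their CG content can be seen; methylation itself was not measured. RefSeq's windows on GRCm38.p6 covered 4 of the 7 genes, namely Pdyn, Oprd1, Oprm1 and Oprl1. Written 5′ to 3′ on the strand of the gene, with every CG in capitals, Oprd1 and Oprl1 are shown as the receptors whose RNA differed between groups, and Pdyn as the precursor with a window. They lie at chr4:132144487-132144736, chr2:181714766-181715015 and chr2:129699939-129700188.
Oprd1: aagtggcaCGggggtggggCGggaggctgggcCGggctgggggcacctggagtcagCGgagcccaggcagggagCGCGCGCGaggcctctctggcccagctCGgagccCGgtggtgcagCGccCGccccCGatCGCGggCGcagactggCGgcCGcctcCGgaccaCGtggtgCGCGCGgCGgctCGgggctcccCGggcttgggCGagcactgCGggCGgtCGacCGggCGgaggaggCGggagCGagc
Oprl1: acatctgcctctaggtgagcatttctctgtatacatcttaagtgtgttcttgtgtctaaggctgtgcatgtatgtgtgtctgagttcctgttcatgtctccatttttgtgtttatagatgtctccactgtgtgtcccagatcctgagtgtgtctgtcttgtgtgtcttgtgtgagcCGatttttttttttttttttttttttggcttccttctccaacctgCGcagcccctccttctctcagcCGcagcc
Pdyn: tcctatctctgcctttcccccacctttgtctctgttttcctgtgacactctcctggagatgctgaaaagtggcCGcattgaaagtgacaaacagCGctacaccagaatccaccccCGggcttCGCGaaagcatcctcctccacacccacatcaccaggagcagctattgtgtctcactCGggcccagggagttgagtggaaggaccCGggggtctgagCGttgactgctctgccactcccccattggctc

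The Oprd1 window held 34 CG dinucleotides, a number reached by 3.53% of the 32851 windows in the table, and 80% of its bases were G or C. The Pdyn window shown held 8 and the Oprl1 window shown 3, against a median of 6 over all windows, and as many as 8 or 3 were found in 43% and 71% of them. Of the windows not shown, the other for Pdyn held 4 and the others for Oprl1 held 1 and 2. Oprm1 had a window without a CG and a pair with 4 each. Motifs bound by activity-regulated factors were searched on both strands of the 9 windows of the 4 genes. Neither the cAMP response element TGACGTCA, its short form CGTCA, the AP-1 motif TGANTCA nor the Egr motif GCGGGGGCG was found in any of the 9, while 1.55%, 17.8%, 6.75% and 2.57% of all windows held them. The short form is part of the full element, so these searches are not independent. The pair of Oprm1 windows with 4 CG each overlaps, at 6788320 to 6788569 and 6788326 to 6788575 of chromosome 10. Penk and Pnoc, which rose with bicuculline, had no window, so the search says nothing about them.

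Levels are given as CPM, the counts scaled to a common library size with TMM factors. Groups were compared by log2 fold changes from the quasi-likelihood test of edgeR, with p adjusted by Benjamini and Hochberg's method over the 17222 genes tested. Calls required an adjusted p below 0.05 together with an absolute log2 fold change above 0.5. Total counts were 28912697 to 29586355 per library. Dnmt3a RNA in the knockdown was 14.2% of the Control-shRNA level in baseline and 13.9% with bicuculline. The immediate early gene Fos rose with bicuculline by 6.40 on the log2 scale (SE 0.22) in Control-shRNA and by 6.19 (SE 0.21) in Dnmt3a1-shRNA. In baseline Fos was itself called higher in the knockdown, at 15.5 against 10.3 CPM (0.58, SE 0.19, edgeR adjusted p = 0.0437), with overlapping groups. With bicuculline it was not called (0.37, SE 0.17, edgeR adjusted p = 0.136). The paper reports Fos as unaltered by the knockdown. Neuronal markers were abundant, at 6121 to 8435 CPM summed over 6 genes, and those of microglia were close to 0, at 1.89 to 4.91 CPM summed over 6 genes. Astrocyte markers (8 genes, 687 to 1083 CPM summed), oligodendrocyte lineage markers (8 genes, 98.6 to 225 CPM) and markers of fibroblasts and vessels (8 genes, 52.5 to 125 CPM) were present throughout.

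**Figure D1:**
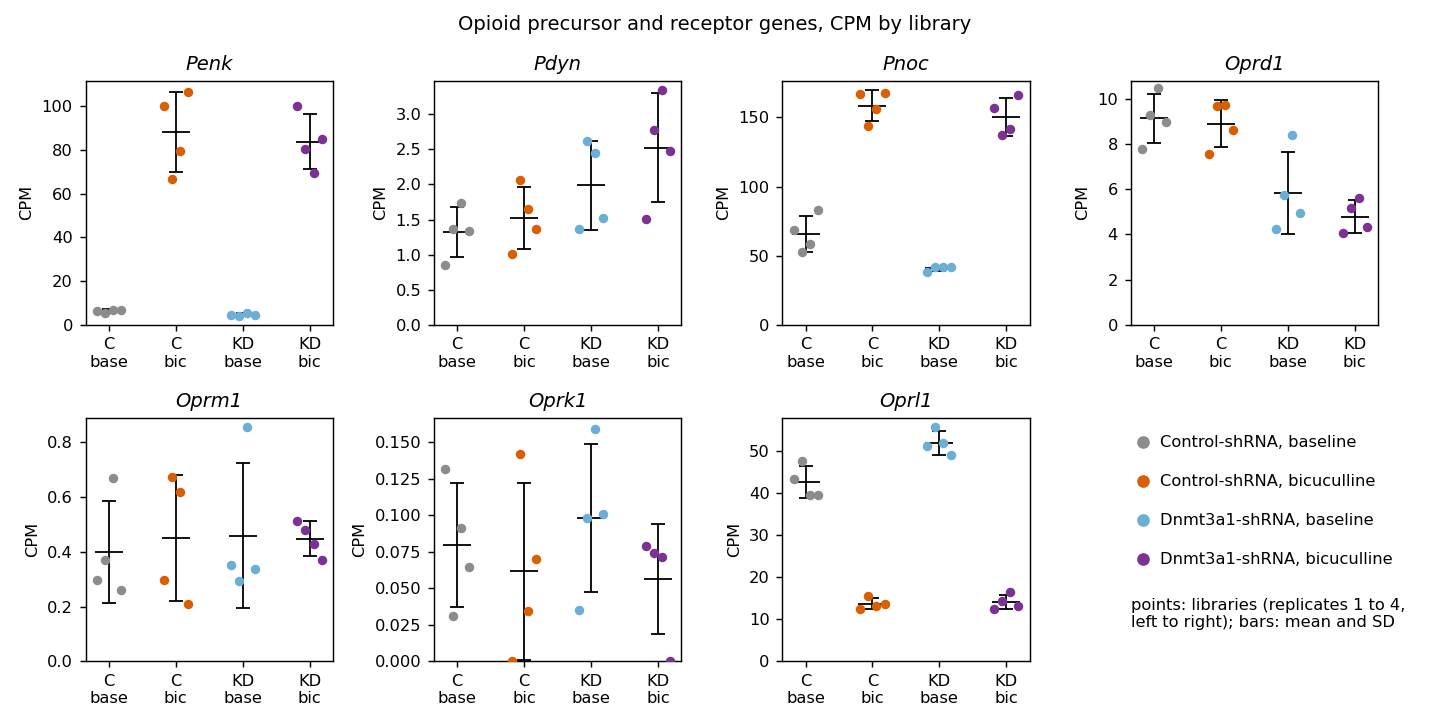
CPM of the 7 opioid genes in each of the 16 libraries (vertical axes, linear and starting at 0) by group (C, Control-shRNA; KD, Dnmt3a1-shRNA; base, baseline; bic, 4 h bicuculline), with the mean and SD of 4 libraries. Penk and Pnoc lie far above baseline in every bicuculline library and Oprl1 far below it, while Oprd1 is lower in the knockdown groups.

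Within the family, bicuculline raised the RNA of 2 precursors, Penk and Pnoc, and lowered that of 1 receptor, Oprl1, with either shRNA. In Control-shRNA 3 of the 6 genes that could be tested were called, 2 higher and 1 lower, while 21.9% of all tested genes were called (10.8% higher and 11.1% lower). In Dnmt3a1-shRNA the same 3 genes were called in the same directions, against 25.8% of all tested genes (12.6% higher and 13.2% lower). For all 3 genes, the 4 bicuculline libraries did not overlap with the 4 baseline libraries in either shRNA, which was the case for 39.7% and 40.4% of all tested genes. The median log2 fold change of the 6 genes was 0.19 in Control-shRNA and 0.15 in Dnmt3a1-shRNA, beside 0.01 and -0.01 over all tested genes. With 6 genes these shares are a description of the family and not a result about it.

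Penk, the enkephalin precursor, had the largest response of the 6 tested genes. In Control-shRNA its CPM was 6.35, 5.22, 6.85 and 6.58 in replicates 1 to 4 of baseline and 99.9, 66.9, 79.5 and 106 with bicuculline. Each stimulated library was 11.6 to 16.2 times as high as the baseline library of the same number, and the lowest stimulated library was far above the highest baseline library. The mean went from 6.25 ± 0.72 to 88.1 ± 18.2 CPM (SD, n = 4), a ratio of 14.1, with a log2 fold change of 3.82 (SE 0.16, edgeR adjusted p = 4.65e-12). In Dnmt3a1-shRNA Penk was at 4.25, 4.05, 5.46 and 4.65 CPM in baseline and at 99.9, 80.6, 69.3 and 85.2 CPM with bicuculline. That is a rise from 4.6 ± 0.62 to 83.7 ± 12.7 CPM, a ratio of 18.2, with a log2 fold change of 4.18 (SE 0.16, edgeR adjusted p = 2.23e-12). In these bulk cultures more RNA per cell and more cells with the RNA cannot be told apart. The antisense RNA A830012C17Rik had group means of 0.0319, 0.558, 0.0167 and 0.637 CPM in the order Control-shRNA baseline, Control-shRNA bicuculline, Dnmt3a1-shRNA baseline and Dnmt3a1-shRNA bicuculline, far below those of Penk itself.

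Pnoc, the nociceptin precursor, started from a higher level. Control-shRNA libraries held 68.3, 52.9, 58.5 and 82.9 CPM in baseline and 167, 144, 156 and 168 CPM with bicuculline. The mean rose from 65.6 ± 13.2 to 159 ± 11.1 CPM (log2 fold change 1.27, SE 0.11, edgeR adjusted p = 5.05e-08). In Dnmt3a1-shRNA the baseline libraries were close together, at 37.8, 41.8, 41.6 and 42.0 CPM, and the bicuculline libraries were at 157, 137, 141 and 166 CPM. The mean there rose from 40.8 ± 1.99 to 150.3 ± 13.5 CPM (log2 fold change 1.88, SE 0.11, edgeR adjusted p = 3.45e-10). The baseline groups of the 2 shRNAs did not overlap, whereas the stimulated groups did.

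Oprl1, the receptor for nociceptin, moved the opposite way from its ligand's precursor. With Control-shRNA it was at 43.5, 47.7, 39.6 and 39.7 CPM in baseline and at 12.5, 15.7, 13.2 and 13.6 CPM with bicuculline. The stimulated mean was 32.3% of the baseline mean (13.8 ± 1.34 against 42.6 ± 3.83 CPM, log2 fold change -1.63, SE 0.09, edgeR adjusted p = 2.62e-10). With Dnmt3a1-shRNA the values were 51.3, 55.8, 51.9 and 49.1 CPM in baseline and 12.5, 14.3, 16.4 and 13.3 CPM with bicuculline. There 27.1% of the baseline mean remained (14.1 ± 1.70 against 52.0 ± 2.81 CPM, log2 fold change -1.88, SE 0.09, edgeR adjusted p = 3.34e-11). The stimulated groups of the 2 shRNAs overlapped in CPM, and their baseline groups did not.

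The remaining genes were not called for bicuculline. Pdyn, the dynorphin precursor, had log2 fold changes of 0.20 (SE 0.29, edgeR adjusted p = 0.627) in Control-shRNA and 0.35 (SE 0.28, adjusted p = 0.333) in Dnmt3a1-shRNA. Oprd1 had values of -0.04 (SE 0.17, edgeR adjusted p = 0.885) and -0.29 (SE 0.18, adjusted p = 0.205). Oprm1 was counted 6 to 27 times per library, and its log2 fold changes of 0.17 and -0.05 each had a standard error of 0.42, so a difference of this size was not detectable at this depth. Oprk1 had 0 to 5 counts per library and failed the filter on low counts. Fitted without that filter, its edgeR adjusted p ranged from 0.545 to 1 over the comparisons.

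**Figure D2:**
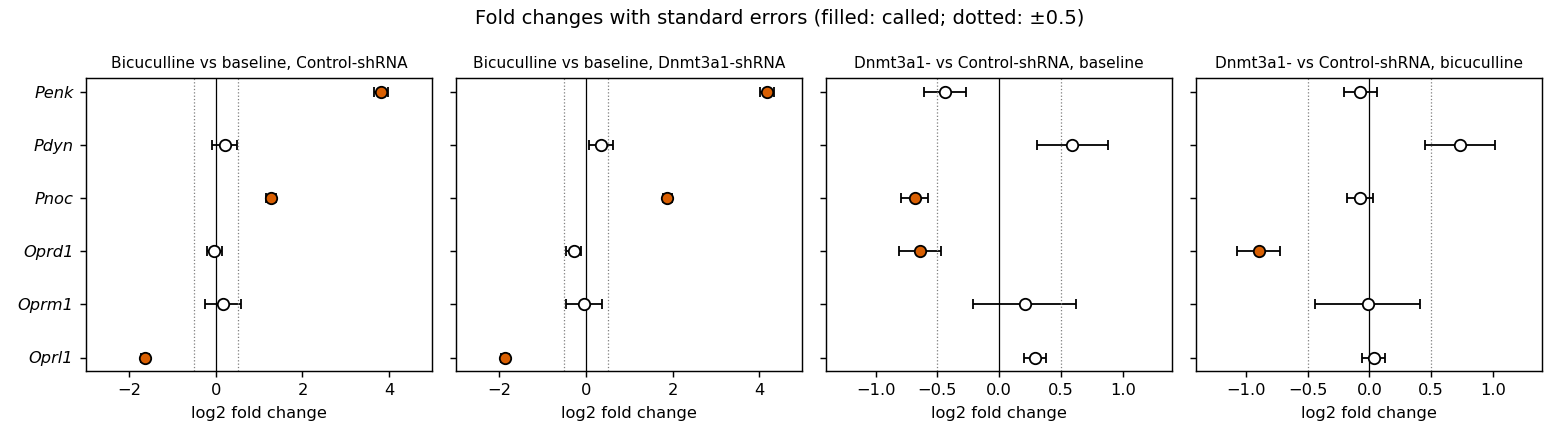
Log2 fold changes of the 6 tested opioid genes with their standard errors in 4 comparisons (horizontal axes, log2; the 2 left panels span a wider range than the 2 right panels). Filled points were called in the fit without a replicate block. Bicuculline moved Penk, Pnoc and Oprl1 in both shRNAs, and the knockdown lowered Oprd1 in both conditions and Pnoc in baseline.

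Markers of GABAergic neurons, a known source of Penk and Pnoc, also moved with bicuculline. Of 10 such markers, 3 were called higher with either shRNA and none lower (Gad2, Gad1 and Dlx1, by 0.65, 0.61 and 0.58 in Control-shRNA) and a list median of 0.37, while 10.8% and 12.6% of all tested genes were called higher in the 2 shRNAs. Without the fold threshold 7 of the 10 had an edgeR adjusted p below 0.05 with either shRNA, as had 7131 (Control-shRNA) and 7919 (Dnmt3a1-shRNA) of the 17222 tested genes. Their summed level was 2330 to 2769 CPM in Control-shRNA baseline and 3307 to 3693 CPM with bicuculline, and 2104 to 2468 and 2941 to 3523 CPM in Dnmt3a1-shRNA. Dentate granule markers gave no common direction in Control-shRNA, with C1ql2 higher by 1.13 and Dsp lower by 1.88 among 5 of 6 tested, and summed levels of 96.6 to 152 CPM in baseline and 110 to 119 CPM with bicuculline. Other marker lists also held called genes with bicuculline in Control-shRNA. Among 6 excitatory markers 1 was called higher (Slc17a6, 1.54) and 1 lower (Neurod6, -1.29), with a list median of 0.03. Sox9 was called higher among 8 astrocyte markers (1.09), and 2 of 7 tested fibroblast and vessel markers were called higher. Tubb3 of the neuronal list (-0.77) and Mog of the oligodendrocyte lineage list (-0.83) were called lower. The part of these markers in the responses of Penk and Pnoc was not tested.

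The knockdown of Dnmt3a1 was compared with Control-shRNA in each condition. In baseline 2 of the 6 tested genes were called, Pnoc and Oprd1, both lower, while the call rate over all tested genes was 5.83% (1.76% higher and 4.07% lower). With bicuculline 1 of 6 was called, Oprd1, again lower, against 5.89% of all tested genes (2% higher and 3.9% lower). These counts are from the fit without a replicate block. With the block Pdyn was called too, and higher, in baseline (0.58, edgeR adjusted p = 0.0100) and with bicuculline (0.73, adjusted p = 0.00182). In CPM the groups did not overlap for 2 of 6 genes in baseline (Pnoc and Oprl1) and for 1 of 6 with bicuculline (Oprd1), as for 19.9% and 20.9% of all tested genes. The medians of the 6 genes were -0.12 and -0.04, beside 0.01 and -0.01 over all tested genes.

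Oprd1, the delta receptor on which enkephalins act, was lower in the knockdown in both conditions. In baseline it was at 7.80, 9.29, 10.5 and 8.98 CPM with Control-shRNA and at 4.25, 5.75, 8.38 and 4.95 CPM with Dnmt3a1-shRNA. Knockdown replicate 3 lay within the range of the control libraries, so the groups overlapped, but the knockdown library was lower for each of the 4 replicate numbers. The mean was 63.9% of control (5.83 ± 1.81 against 9.14 ± 1.10 CPM, log2 fold change -0.64, SE 0.17, edgeR adjusted p = 0.0148), and the adjusted p was 0.0511 without Control-shRNA baseline replicate 3, 0.0516 without Dnmt3a1-shRNA baseline replicate 1 and 0.0539 without Dnmt3a1-shRNA baseline replicate 4. With bicuculline the values were 7.56, 9.69, 9.75 and 8.63 CPM in Control-shRNA and 4.04, 5.15, 5.63 and 4.32 CPM in Dnmt3a1-shRNA, with no overlap. There the mean was 53.7% of control (4.78 ± 0.73 against 8.91 ± 1.04 CPM, log2 fold change -0.89, SE 0.18, edgeR adjusted p = 0.00186). The 34 CG dinucleotides before its start, shown above, are a property of the reference sequence, and their methylation in these cultures was not measured.

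Pnoc was lower in the knockdown in baseline, at 62.1% of the control mean (log2 fold change -0.69, SE 0.11, edgeR adjusted p = 3.20e-04). With bicuculline its means were 150.3 and 159 CPM in Dnmt3a1-shRNA and Control-shRNA (log2 fold change -0.08, SE 0.11, adjusted p = 0.664). Penk was at 73.7% of control in baseline (log2 fold change -0.44, SE 0.17, edgeR adjusted p = 0.0855), which was not called, although the knockdown library was the lower one for each replicate number. With the replicate block the value was -0.43 with an edgeR adjusted p of 0.0315, past the p but not past the fold threshold. With library sizes in place of TMM factors its value was -0.52 (edgeR adjusted p = 0.0330). With bicuculline the Penk log2 fold change was -0.07 (SE 0.13, edgeR adjusted p = 0.752).

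Oprl1 in CPM was higher in the knockdown in baseline in every library, 49.1 to 55.8 against 39.6 to 47.7 CPM, or 122% of the control mean. In TPM these groups overlapped, at 33.9 to 43.1 against 32.3 to 40.2. Its log2 fold change of 0.29 (SE 0.09, edgeR adjusted p = 0.0302) passed the adjusted p but not the fold threshold, so it was not called. Over the 28 alternatives by edgeR, DESeq2 and limma the value was 0.14 to 0.35, with an adjusted p of 0.00437 to 0.672. With bicuculline the log2 fold change was 0.04 (SE 0.09, edgeR adjusted p = 0.828), and its sign turned with library sizes only (-0.03) and on log2(TPM + 1) (-0.11). Oprm1 had values of 0.20 and -0.01 in the 2 conditions, within its error. Its antisense neighbour Ipcef1 was more abundant, with group means from 6.11 to 11.8 CPM, and reads in their 96 shared bases cannot be told apart.

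Pdyn was low throughout, at 26 to 94 counts per library, and differed between replicate numbers as well as between groups. Control-shRNA libraries 1 to 4 were at 0.856, 1.36, 1.73 and 1.33 CPM in baseline, and Dnmt3a1-shRNA libraries at 1.37, 2.62, 2.44 and 1.52 CPM. With bicuculline they were at 1.01, 2.06, 1.65 and 1.37 CPM in Control-shRNA and at 1.5, 2.78, 3.35 and 2.47 CPM in Dnmt3a1-shRNA. The groups overlapped, yet the knockdown library was the higher one for all 4 numbers in both conditions. The log2 fold changes were 0.59 in baseline (SE 0.29, edgeR adjusted p = 0.185) and 0.73 with bicuculline (SE 0.28, adjusted p = 0.0841), neither called in the fit without a replicate block. Without Dnmt3a1-shRNA bicuculline replicate 1 the value with bicuculline was 0.91 (edgeR adjusted p = 0.0381), which is a call. With a replicate block the edgeR fit gave 0.58 in baseline (adjusted p = 0.0100) and 0.73 with bicuculline (adjusted p = 0.00182), and both are calls. In baseline the deviations of libraries that shared a number correlated at 0.204 to 0.355, while with bicuculline replicate 4 correlated at only 0.0667.

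**Figure D3:**
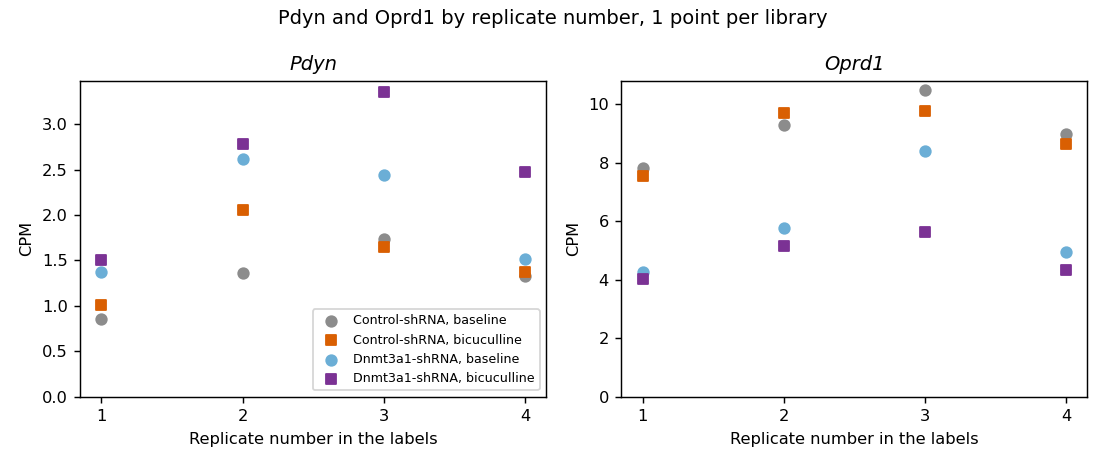
CPM of Pdyn and Oprd1 (vertical axes from 0) by the replicate number of the labels, 1 point per library, circles for baseline and squares for bicuculline. Replicate 1 is the lowest of its group for both genes in all 4 groups, and within each number Pdyn is higher and Oprd1 lower with Dnmt3a1-shRNA.

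Some glial and vascular markers followed the same order of replicate numbers. In each of the 4 groups the 2 highest Pdyn libraries were replicates 2 and 3, and these also had the 2 highest summed levels of oligodendrocyte lineage markers (174 to 225 CPM, against 98.6 to 154 CPM in replicates 1 and 4). Markers of fibroblasts and vessels were highest in replicate 3 and lowest in replicate 1 of each group. Between the shRNAs, S100b of the astrocyte list was called higher in both conditions (0.82 and 0.84), 1 of 8 in each, and 5 of the 8 in baseline and 4 with bicuculline had an unadjusted edgeR p below 0.05 (list medians 0.42 and 0.42). No share over all genes is given here for that unadjusted level. Also called higher was 1 of the 7 tested genes of the fibroblast and vessel list (Pdgfrb in baseline, 0.75, and Lum with bicuculline, 0.67). None of the 7 tested oligodendrocyte lineage markers was called by edgeR, and 0 in baseline and 1 with bicuculline had an unadjusted p below 0.05. Of the microglial markers, 2 of 6 were tested and 1 of them, Csf1r, was called lower in both conditions (-0.66 and -0.75), and in baseline the summed level was 1.89 to 3.04 CPM in the knockdown against 3.43 to 4.51 CPM in Control-shRNA. Among the 6 neuronal markers Tubb3 was called higher in baseline (0.51). For the GABAergic list 1 of 10 was called lower in the knockdown, Dlx5, by 0.98 in baseline and 1.03 with bicuculline, with list medians of -0.12 and -0.12 and summed levels that overlapped in baseline (2330 to 2769 against 2104 to 2468 CPM). Without the fold threshold 2 of the 10 passed in baseline, Dlx5 and Gad1 (-0.42, edgeR adjusted p = 0.0267), and 1 with bicuculline. Of the 17222 tested genes 2809 and 3046 passed in the 2 conditions. Beside the marker counts, 1.76% of all tested genes were called higher and 4.07% lower in baseline, and 2% and 3.9% with bicuculline. The part of these cell types in the values of Pdyn, Pnoc and Oprd1 was not tested.

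Whether the bicuculline response differed between the shRNAs was tested by the interaction term, where the adjusted p alone decides a call. None of the 6 genes and none of all 17222 was called (0% of all tested genes) by edgeR, while 852 genes, or 4.95%, had an unadjusted p below 0.05. DESeq2 called 17 of all genes and voom with limma 0, none of them among the 6. Pnoc was the only 1 of the 6 below that unadjusted level, with a difference of 0.61 between its 2 log2 fold changes (SE 0.15, unadjusted p = 9.04e-04, edgeR adjusted p = 0.449). With the replicate block the Pnoc difference was 0.59 (edgeR adjusted p = 0.0571), close to the threshold but not called. Pnoc rose by a factor of 2.42 in Control-shRNA and 3.68 in Dnmt3a1-shRNA. The differences were 0.36 (SE 0.21) for Penk, -0.25 (SE 0.13, unadjusted p = 0.0660 in edgeR's test) for Oprl1 and -0.25 (SE 0.24) for Oprd1.

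Levels between genes were compared by TPM, which is scaled for transcript length. In Control-shRNA baseline the order was Pnoc (82.8 TPM), Oprl1 (35.3), Penk (15.6), Oprd1 (4.99), Pdyn (1.29), Oprm1 (0.452) and Oprk1 (0.0630), and no 2 neighbours in this order overlapped in their libraries. With bicuculline in Control-shRNA, Penk (189 TPM) and Pnoc (175 TPM) came first and overlapped, followed by Oprl1 (9.71), Oprd1 (4.20), Pdyn (1.37), Oprm1 (0.460) and Oprk1 (0.0482). In Dnmt3a1-shRNA baseline Pnoc (47.4 TPM) and Oprl1 (39.0) overlapped, then came Penk (10.3), and Oprd1 (2.98) overlapped with Pdyn (1.84). In Dnmt3a1-shRNA with bicuculline Penk (165 TPM) and Pnoc (156) overlapped above Oprl1 (9.0), and Oprd1 (2.11) and Pdyn (2.05) overlapped. Oprm1 (0.583 and 0.395 TPM) and Oprk1 (0.0600 and 0.0246 TPM) were the lowest in the knockdown too. Oprk1, the dynorphin receptor, had 0 counts in 2 of 16 libraries, where a count of 0 allows up to 3 counts or 0.112 and 0.111 CPM, so it is not shown to be absent.

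Summed by role, the 3 precursors went from 99.7 ± 16 to 365 ± 45.9 TPM with bicuculline in Control-shRNA and from 59.5 ± 7.82 to 323 ± 19.6 TPM in Dnmt3a1-shRNA (SD, n = 4). The 4 receptors went from 40.8 ± 4.20 to 14.4 ± 1.98 TPM and from 42.6 ± 5.55 to 11.5 ± 2.09 TPM. Most of the receptor sum in baseline was Oprl1, and almost all of the precursor sum with bicuculline was Penk and Pnoc in similar amounts.

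**Figure D4:**
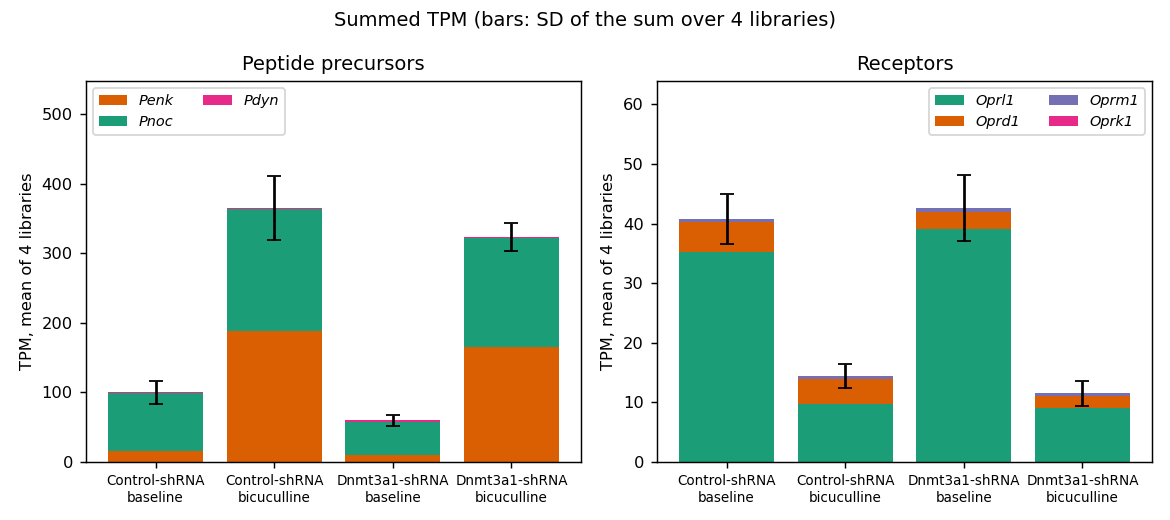
Mean TPM of 4 libraries per group, stacked by gene, for the precursors (left) and the receptors (right, on a smaller scale), with the SD of the summed TPM. The precursor stack is higher with bicuculline in both shRNAs, 365 against 99.7 TPM and 323 against 59.5 TPM, and the receptor stack is lower.

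Genes that act on opioid peptides and behind their receptors were described from 6 lists. Among 7 genes for processing precursors, 2 were called higher with bicuculline in both shRNAs and none lower, with a list median of 0.26 in Control-shRNA. Of all tested genes 10.8% and 12.6% were called higher in the 2 shRNAs. Without the fold threshold 4 and 5 of the 7 had an edgeR adjusted p below 0.05, beside 7131 and 7919 of the 17222 tested genes. Among the list genes that passed were Scg5 (0.26 in both) and Cpe (0.33 and 0.30), and in Dnmt3a1-shRNA also Pcsk2 (-0.25). The 2 called were Pcsk1, the convertase that makes the first cuts (2.93, SE 0.22, edgeR adjusted p = 9.35e-09 in Control-shRNA, and 3.48 in Dnmt3a1-shRNA), and Pam, which amidates peptide ends (1.37, SE 0.11, edgeR adjusted p = 3.09e-08, and 1.60). No gene of this list was called for the knockdown by DESeq2, voom or edgeR with TMM factors and its filter (median -0.25 in baseline), whereas 1 was called in baseline with library sizes only, without the filter and in each TPM fit, and 1 with bicuculline in each TPM fit. An unadjusted edgeR p below 0.05 was found for 4 in baseline and 2 with bicuculline. The carboxypeptidase Cpe, which trims the cut peptides, was at -0.40 and -0.43 with edgeR adjusted p of 4.21e-04 and 2.56e-04, below the fold threshold. Of 7 peptidases that degrade enkephalins and related peptides, such as neprilysin (Mme), none was called by DESeq2, voom or edgeR with TMM factors and its filter in the 4 comparisons (medians -0.07 for bicuculline in Control-shRNA and -0.15 for the knockdown in baseline), while 2 had an unadjusted edgeR p below 0.05 in each. For bicuculline these 2 were Ece1 (-0.40 and -0.43) and Dpp3 (-0.36 and -0.50), and 2 genes of the list were called in each shRNA with library sizes only and in each TPM fit, and 1 in Dnmt3a1-shRNA without the filter.

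Among 6 other genes for opioid binding, the scavenger receptor Ackr3, which takes up opioid peptides, fell with bicuculline (log2 fold change -1.86, SE 0.19, edgeR adjusted p = 5.20e-07 in Control-shRNA and -1.57 in Dnmt3a1-shRNA), and no other was called by edgeR with TMM factors, DESeq2 or voom. With library sizes only and in each TPM fit 3 of the 6 were called in Control-shRNA and 2 in Dnmt3a1-shRNA. None of 11 subunits of inhibitory G proteins was called in the 4 comparisons by DESeq2, voom or edgeR with TMM factors (medians 0.08 for bicuculline in Control-shRNA and 0.21 for the knockdown in baseline). For the knockdown in baseline 8 of the 11 had an unadjusted edgeR p below 0.05, a level for which no share over all genes is given here. An edgeR adjusted p below 0.05 was reached by 6 of the 11, with log2 fold changes within -0.35 and 0.36, and by 2809 of the 17222 tested genes. Among the 6 were Gnao1 (-0.35, edgeR adjusted p = 0.00142), the main G protein of neurons, and Gnai1 (0.36, edgeR adjusted p = 0.0289). Of 13 genes for receptor desensitisation, 3 rose with bicuculline in both shRNAs, with a list median of 0.01 in Control-shRNA and, over all tested genes, 10.8% and 12.6% called higher and 21.9% and 25.8% in either direction. The 3 that rose were Rgs4, a GTPase activator for inhibitory G proteins (1.99 and 1.76), the receptor kinase Grk5 (1.13 and 1.15) and Rgs20 (0.66 and 0.68). Rgs19, of the same GTPase activator family, had values of -0.48 in Control-shRNA, below the fold threshold, and -0.67 in Dnmt3a1-shRNA, where it was called. Of 13 effector channels and cyclases, 12 were tested (Kcnj5 was not), and in both shRNAs 2 rose and 2 fell with bicuculline, beside the same 21.9% and 25.8% of all tested genes. Without the fold threshold 7 and 8 of the 12 had an edgeR adjusted p below 0.05, beside 7131 and 7919 of the 17222 tested genes. Among the list genes that passed were Adcy3 (-0.34 and -0.45) and Adcy9 (-0.27 and -0.47). The cyclase Adcy8 rose by 1.32 and the potassium channel gene Kcnj6 by 0.59 in Control-shRNA, while Adcy6 and the channel gene Kcnj9 fell by 0.57 and 0.54. For the knockdown the 1 gene called in these 6 lists by edgeR with TMM factors and its filter, DESeq2 and voom was the cyclase Adcy3, lower by 0.60 (SE 0.06, edgeR adjusted p = 4.34e-06) in baseline and by 0.71 with bicuculline. At the edgeR adjusted p alone 8 of the 12 effector genes passed in baseline and 6 with bicuculline, beside 2809 and 3046 of the 17222 tested genes. In baseline Kcnj3 (-0.48), Kcnj9 (-0.31) and Cacna1b (-0.22) were lower beside Adcy3, and Adcy8 (0.41), Adcy6 (0.36), Adcy5 (0.35) and Adcy9 (0.26) higher. Of the 13 desensitisation genes 0 passed in baseline and 3 with bicuculline, Rgs4 (-0.44), Rgs19 (-0.32) and Grk2 (-0.24). With library sizes only and in each TPM fit, 2 genes of the effector list were called in baseline and 1 desensitisation gene with bicuculline. No gene of the lists was called for the interaction by edgeR, DESeq2 or voom, and 3 of the desensitisation list had an unadjusted edgeR p below 0.05, beside 4.95% of all tested genes.

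**Figure D5:**
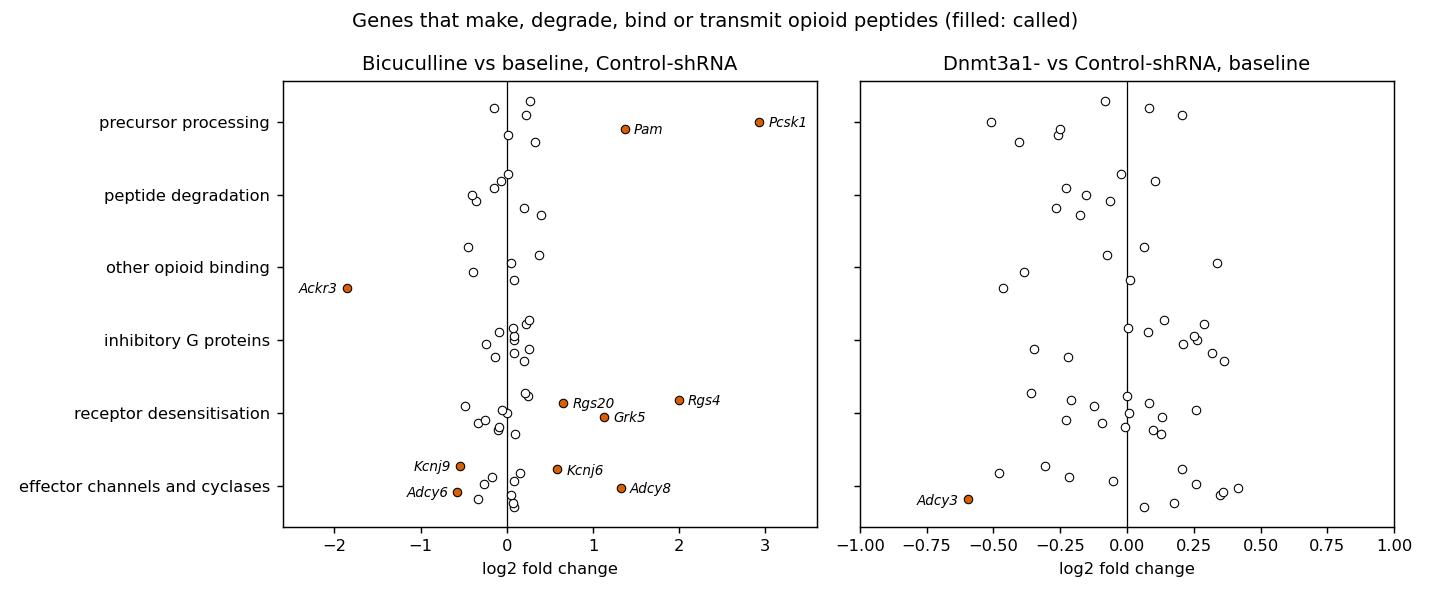
Log2 fold changes of the tested genes of the 6 lists (1 row per list, genes spread vertically for legibility) for bicuculline in Control-shRNA (left) and for the knockdown in baseline (right, on a narrower axis). Filled and named points were called and run from Ackr3 at -1.86 to Pcsk1 at 2.93 for bicuculline, while for the knockdown the 1 such point is Adcy3 at -0.60.

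For each opioid gene with a mean of at least 1 CPM, the 3 genes with the most similar pattern of log2 CPM over the 16 libraries were listed among 13880 genes, as a description. The 16 points share the group means, so a common response to bicuculline is enough to give a high r. Penk was closest to Plk2, Brinp1 and Arc (Pearson's r 0.997, 0.997 and 0.996) and Pnoc to Acan, Ptgs2 and Akirin1 (0.990, 0.983 and 0.983). Oprl1 was closest to Chst12, Akap1 and Bcl7a (0.993, 0.992 and 0.992), and Oprd1 to Slc6a7, Zfp853 and Cdh23 (0.964, 0.963 and 0.950). Pdyn, which was not called for bicuculline, was closest to Anxa5, Mlec and Apobec1 (0.954, 0.952 and 0.947), and for these r was still 0.933, 0.933 and 0.912 after the group means had been removed, when the points share the replicate number. For Penk the values within groups were 0.854, 0.853 and 0.719.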

How the data were processed

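Total RNA of primary mouse hippocampal cultures was sequenced as 16 libraries, which the sample labels put in 4 groups. The paper calls the 4 libraries of a group independent neuronal preparations. The authors trimmed the reads with Trim Galore 0.6.4, per the labels, and quantified them with kallisto against GRCm38.p6 (version 0.4.6 in the labels). The deposited values are an unscaled estimated count and a TPM value for every gene of a library, the TPM scaled for transcript length and library total. Of 55385 identifiers, 55144 matched GENCODE M21 without their version and 54487 with it. Total counts of 28912697 to 29586355 per library set the precision, and the limits given for a count of 0 cover counting error only.

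Rounded estimated counts entered edgeR 4.0.16 under R 4.3.3 (TMM factors 0.871 to 1.12, edgeR's filter on low counts by group, 1 quasi-likelihood model of the 4 groups, Benjamini-Hochberg adjustment over 17222 genes). Calls required an adjusted p below 0.05 and, except for the interaction, an absolute log2 fold change above 0.5. Counts of list genes at an unadjusted p have no share over all genes beside them, except for the interaction. They are not results about a list. Alternatives were voom with limma 3.58.1, DESeq2 1.42.0, other scalings and filters, limma on log2(TPM + 1) and log2(TPM + 0.1), no fold threshold, fits of the compared groups alone, a replicate block, and each library left out.

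Replicate numbers 1 to 4 recur in all groups, and nothing in the sources says that a number marks a shared preparation. Libraries that share a number deviated together from their groups: over the 17222 genes Pearson's r of these deviations was 0.142 to 0.221 for the bicuculline comparison with Control-shRNA and 0.204 to 0.355 for the knockdown comparison in baseline. All 4 numbers exceeded a cut of 0.1 there, but the main fit did not pair these libraries. In the other 2 comparisons r was 0.0631 to 0.337 for bicuculline with Dnmt3a1-shRNA and 0.0667 to 0.388 for the knockdown with bicuculline. Replicate 4 did not reach 0.1 in either. A number that marks a shared preparation would link all 4 groups, so this cut cannot decide pairing for 1 comparison alone. The replicate block was therefore run as an alternative in every comparison.

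The 7 genes and all lists were chosen with earlier results of these data known, and no list is independent evidence. Named are the 7 genes, Dnmt3a and Fos as checks, at most 4 called genes per pathway list and comparison with the largest change, the 3 genes closest to each member, and single markers and uncalled genes picked after their values were seen. Promoter windows are from RefSeq on GRCm38.p6, and RefSeq protein sequences were not used here.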

Additional observations from a re-analysis of the deposited data

Results flagged for a closer look

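Of the 28 sets of 4 libraries examined (7 genes in 4 groups), 3 had a library apart from the other 3 by Dixon's criterion, where chance gives about 1 set in 20. Pnoc was at 37.8 CPM in replicate 1 of Dnmt3a1-shRNA baseline, below the 41.6 to 42.0 CPM of the others, and the whole set lay below every Control-shRNA baseline library. Oprm1 was at 0.857 CPM in replicate 3 of Dnmt3a1-shRNA baseline, against 0.294 to 0.351 CPM, and Oprk1 was at 0 CPM in replicate 4 of Dnmt3a1-shRNA with bicuculline, against 0.0713 to 0.0792 CPM. These last values rest on at most 27 counts.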

How the results depend on the processing

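The calls of Penk, Pnoc and Oprl1 for bicuculline, of Pnoc for the knockdown in baseline and of Oprd1 for the knockdown with bicuculline held in all 28 alternatives, and the call of Oprd1 in baseline in 24 of 28. The 28 are not independent checks. Without the fold threshold the main fit could lose no call, and some of the fits left out a library of a group that was not compared. Among the 16 fits with a library left out, Oprd1 in baseline was called in 13. With each library left out, the number of opioid genes called was 3 for bicuculline with either shRNA, 1 to 2 for the knockdown in baseline, 1 to 2 with bicuculline and 0 for the interaction. Those changes came from Oprd1, lost without Control-shRNA baseline replicate 3 or Dnmt3a1-shRNA baseline replicate 1 or 4, and from Pdyn, called without Dnmt3a1-shRNA bicuculline replicate 1 (0.91). The knockdown in baseline gave 1 gene on log2(TPM + 1) without a filter, where Oprd1 was at -0.62 (limma adjusted p = 0.0895). With the replicate block the knockdown with bicuculline gave 2 genes, since Pdyn was called (0.73, edgeR adjusted p = 0.00182), and in baseline Pdyn was called too; the block changed no other call of an opioid gene. Penk in baseline was called in the knockdown comparison with library sizes only and on log2(TPM + 1) and log2(TPM + 0.1) with the filter (-0.52, -0.57 and -0.62). The cause of these changes was not tested.

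Signs turned for values that were not called. Oprm1 was at -0.00075 for bicuculline in Control-shRNA on unfiltered log2(TPM + 1). In Dnmt3a1-shRNA it was at 0.084 by voom and 0.0065 with the replicate block. For the knockdown with bicuculline it was at 0.13 by voom, 0.0011 by DESeq2, 0.0021 with DESeq2's size factors and 0.031 with the block. Oprl1 in that comparison was at -0.030 with library sizes only, -0.11 on log2(TPM + 1) with and without the filter and -0.12 on log2(TPM + 0.1). With libraries left out, Oprd1 ranged from -0.11 to 0.035 for bicuculline in Control-shRNA. Oprm1 ranged from -0.088 to 0.54 and from -0.22 to 0.45 for bicuculline, from -0.29 to 0.57 and from -0.24 to 0.24 for the knockdown in baseline and with bicuculline, and from -0.59 to 0.28 for the interaction. For the knockdown with bicuculline Penk ranged from -0.19 to 0.037 and Oprl1 from -0.045 to 0.10, and the interaction of Pdyn from -0.021 to 0.32.

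Scaling by library size alone moved the median of all genes by -0.15 and -0.16 in the bicuculline comparisons. Without the fold threshold 7131, 7919, 2809 and 3046 genes were called over all genes, against 3765, 4436, 1004 and 1015, and unfiltered log2(TPM + 1) called 638 and 644 for the knockdown. For the interaction the count over all genes was 17 by DESeq2, 3 without the filter, 3 with the block and 1 in each TPM fit. Depth limits Oprm1 and Oprk1, with at most 27 and 5 counts per library.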
